A study of Arabidopsis thaliana with 4 samples.

Results

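The genotype by aluminium interaction is how far the transcript response of Arabidopsis thaliana roots to aluminium (Al) differs between the mutant wrky47-1 and the wild type. For each gene it was computed from all 4 arrays of the series as the Al response in wrky47 minus the Al response in the wild type, each response being log2 signal in Al minus log2 signal in control solution. It was taken over the 20550 of 22810 probe sets that are no controls and name 1 gene, which stand for 20341 genes. Of these, 12223 genes were detected on all 4 arrays, which here means a signal above the 40th percentile of that array (its floor), and are called measured. A positive value means a higher Al response in wrky47, and a value of 1 or more in size, in either direction, is a 2-fold difference between the responses. A gene is said to rise or fall with Al only where its response in that genotype was 2-fold or more.

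Plants of 4 weeks from hydroponic culture were moved for 6 h into 0.5 mM CaCl2, alone as the control or with 25 µM AlCl3, and total RNA of the roots was hybridised. Each combination of genotype and solution had 1 array, so the 4 arrays are the wild type in control solution, wrky47 in control solution, the wild type in Al and wrky47 in Al. Both genotypes received the CaCl2 solution, and the labels give the mutant as 1 line, wrky47-1, with no second allele and no complemented line among the samples. With n = 1 per group no difference can be set against a spread between replicates, so no p-value was computed. Signals below are log2 signals, given in that order unless stated otherwise.

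Aluminium ions in acid soils stop root growth within hours, bind to the pectin and hemicellulose of the cell wall and set off organic acid release, internal sequestration of Al and broad stress programmes. WRKY proteins are plant transcription factors that bind DNA through a WRKY domain and are best known from defence and abiotic stress. An interaction asks a narrower question than a list of mutant effects: a gene whose level differs between the genotypes by the same amount with and without Al has an interaction of 0.

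The interaction was small for most genes. Over the 12223 measured genes its median was 0.05 and its SD over genes was 0.25, against SDs of 0.50 for the Al response in the wild type and 0.50 in wrky47. The middle 50% of genes lay between -0.09 and 0.20, and the 1st and 99th percentiles were -0.57 and 0.68. A difference of 0.5 or more in size was found for 667 genes, 474 of them above and 193 below 0. At 2-fold, 23 genes differed (0.188% of the measured genes), 16 with a higher response in wrky47 (0.131%) and 7 with a lower one (0.0573%). For comparison, 5.35% of the same genes passed 2-fold for Al in the wild type, 5.26% for Al in wrky47, 0.205% for genotype in control solution and 0.319% for genotype in Al. No gene rose 2-fold or more in one genotype and fell 2-fold or more in the other.

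The centre of the distribution bears on the split between higher and lower genes. The deposited scaling left 59.6% of the genes above 0, and counted from the median of 0.05 the split was 10 higher and 10 lower. Quantile normalization gave 10 higher and 11 lower genes, and subtracting from each array the median over detected genes, or scaling it to the 75th percentile of its signal gave 9 higher and 12 lower. The share of higher genes among those past 2-fold was thus 69.6% as deposited and 47.6%, 42.9% and 42.9% under the other 3 scalings. More genes higher than lower is therefore a statement about the deposited scaling only.

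**Figure D1:**
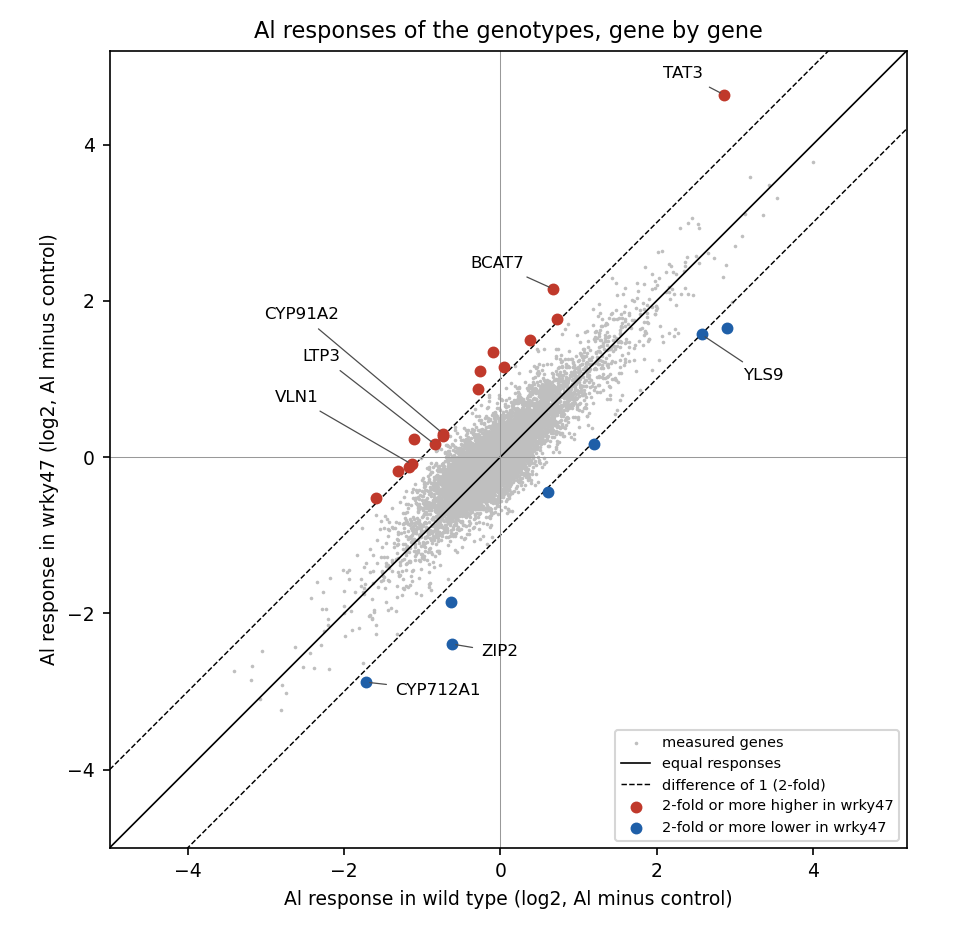
Al response in wrky47 (vertical axis, log2) against the Al response in the wild type (horizontal axis, log2) for the 12223 measured genes; the solid line marks equal responses and the dashed lines a 2-fold difference between them. The 16 genes above the upper dashed line (red) and the 7 below the lower one (blue) include genes with small responses and genes with large ones: TAT3, YLS9 and AT2G29220 rose in both genotypes and CYP712A1 fell in both.

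In their medians the strongest responders answered Al to a similar extent in both genotypes. Among 373 genes whose mean response over the genotypes was 1 or more, the median response was 1.38 in the wild type and 1.43 in wrky47, and 321 of them differed by less than 0.5. Among 247 genes with a mean response of -1 or less, the medians were -1.29 and -1.32, and 202 differed by less than 0.5. Past 2-fold were 3 higher and 2 lower of the 373 genes, and 1 higher and 3 lower of the 247. Over all measured genes 0.188% were past 2-fold. Differences of this size, and those of 0.5 or more, were thus more frequent among strong responders than over all measured genes. The median interaction stayed between -0.05 and 0.06 in 8 bins of mean response from the lowest to the highest. The spread did not stay level: its SD was 0.23 for genes with a mean response between -0.5 and 0.5, 0.39 between -2 and -1, and 0.47 above 2. It also fell with signal, from 0.29 in the dimmest of 5 equal bins to 0.19 in the brightest.

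Probe sets of the same gene give an internal measure of error, and the spike-in controls, described at the end, another, with single values from -0.88 to 0.52. In 84 genes a second probe set was above the floor on all 4 arrays, and the interaction of the brighter and the dimmer probe set had the same sign in 38 of them. Their Pearson r was 0.19 across genes, and the SD per probe set was 0.22. The Al responses of the same pairs had an r of 0.74 in the wild type and 0.73 in wrky47, the genotype difference in control solution 0.43 and that in Al 0.55. These pairs share the 4 RNA samples, so the gap between probe sets leaves out all variation between plants. An interaction of 0.22 or less in size is thus within the SD of a probe set, and each of the 23 genes past 2-fold had 1 probe set. The largest gap within a pair was 1.02.

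**Figure D2:**
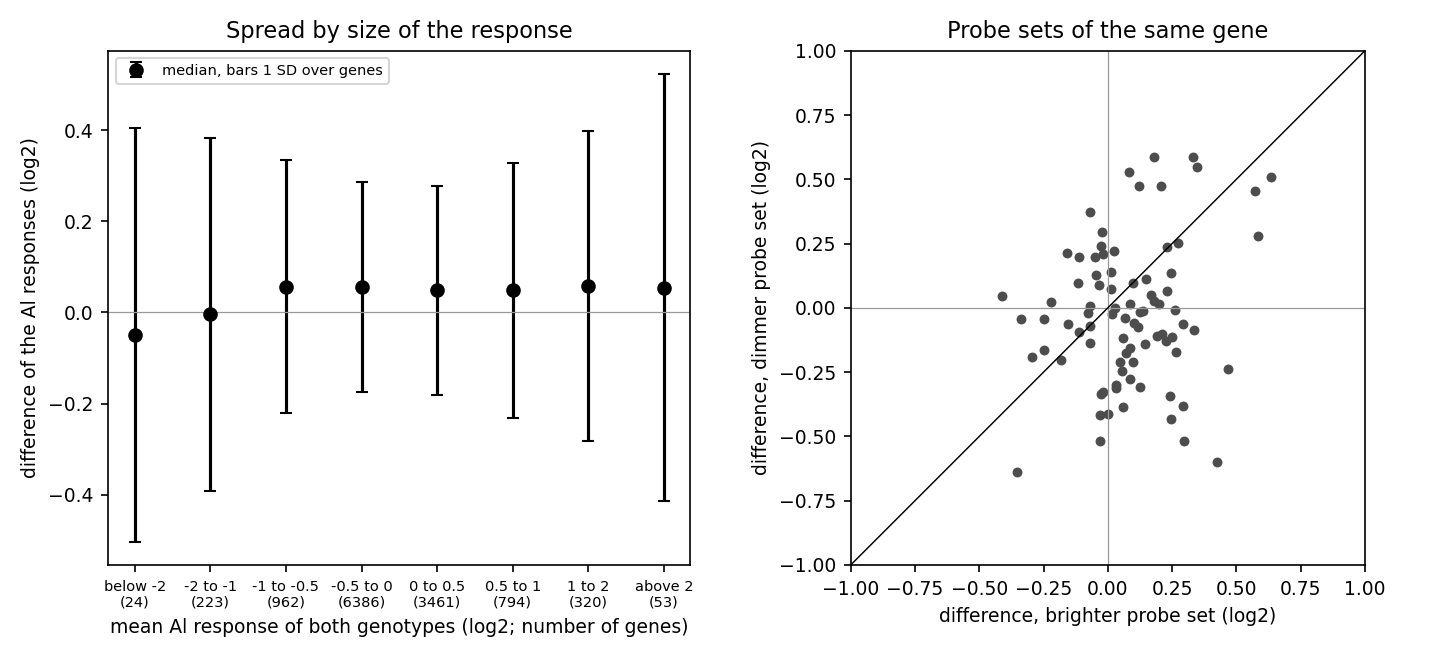
Left, median interaction (points) with 1 SD over genes (bars) in 8 bins of the mean Al response of both genotypes, with the number of genes in brackets; right, the interaction of the dimmer against the brighter probe set of 84 genes, with the line of equality. The medians are 0.05 or 0.06 in 6 of 8 bins while the SD grows from 0.23 in the middle to 0.47 at the right, and the probe sets of a gene scatter widely around the line.

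The largest positive interaction belonged to TAT3 (AT2G24850), a tyrosine aminotransferase known as a marker of jasmonate treatment. Its signals were 8.30, 7.16, 11.17 and 11.80. It rose in both genotypes, 7.27-fold in the wild type and 24.9-fold in wrky47, and the difference of the responses was 1.77 (3.42-fold). The wrky47 array was the lower of the pair in control solution, by 1.14, and the higher in Al, by 0.63, so that the lines for the genotypes crossed.

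BCAT7 (AT1G50090), a member of the branched-chain amino acid aminotransferases, came next. Its signals were 9.16, 8.0, 9.84 and 10.15. It rose 4.44-fold in wrky47 and stayed under 2-fold in the wild type, at 1.60-fold, an interaction of 1.47. As for TAT3, the wrky47 control array was the lowest of the 4 and the wrky47 Al array the highest.

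The other 3 genes with a symbol among the 16 were lower in Al chiefly in the wild type. VLN1 (AT2G29890), a villin that binds and bundles actin filaments, had signals of 7.5, 6.69, 6.37 and 6.59, the wild-type Al signal being close to the floor of 6.23. VLN1 fell 2.19-fold in the wild type and moved by 1.07-fold in wrky47, an interaction of 1.04. CYP91A2 (AT4G37430), a cytochrome P450, had 9.25, 8.80, 8.52 and 9.10, with log2 responses of -0.73 in the wild type and 0.30 in wrky47 and an interaction of 1.03. For LTP3 (AT5G59320), a lipid transfer protein of the cell surface, the signals were 7.90, 7.99, 7.06 and 8.15, the responses -0.84 and 0.17, and the interaction 1.01. Neither response of CYP91A2 or LTP3 passed 2-fold alone; in LTP3 the wild-type Al array was the low one.

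A further gene, LNG1 (AT5G15580), a gene known for promoting longitudinal cell expansion in leaves, was below the floor on the wild-type Al array. Its signals were 7.53, 6.54, 6.01 and 6.41, and with the floor in place of the undetected signal its interaction was at least 1.17. It was the only gene with such a bound past 2-fold among 170 genes with a lower bound, and there was none among 239 genes with an upper bound.

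**Figure D3:**
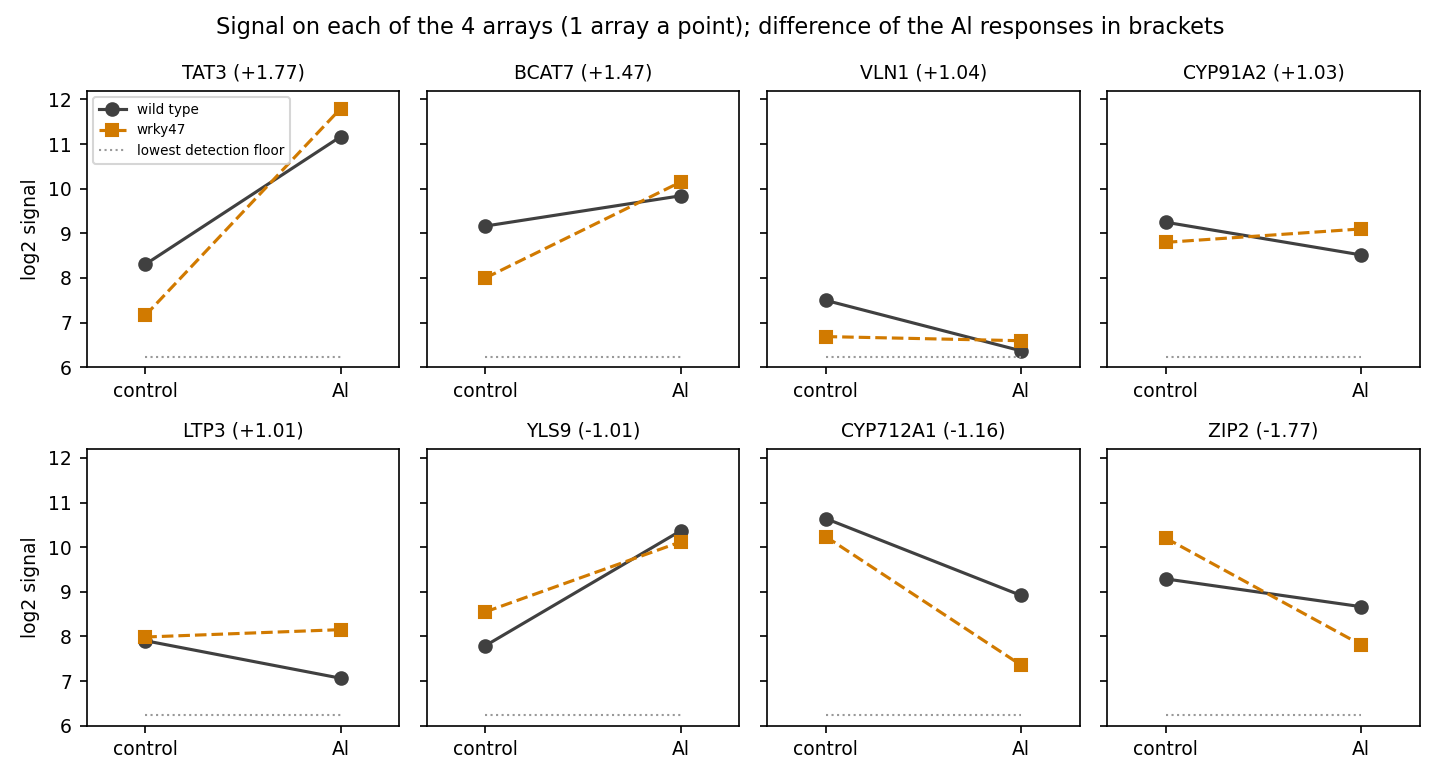
Log2 signal in control solution and in Al of the 8 genes with a symbol past 2-fold, 1 array a point, wild type (grey circles, solid line) and wrky47 (orange squares, dashed line); the dotted line is the lowest detection floor of the 4 arrays. The lines cross in TAT3, BCAT7, VLN1, CYP91A2, YLS9 and ZIP2, nearly meet in control solution in LTP3, and fan out in Al in CYP712A1.

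The remaining 11 of the 16 higher genes carry a gene code only, and since they lie outside the naming rule they were chosen after their values were seen. Largest among them were AT1G63530, a hypothetical protein, with signals of 7.07, 7.23, 6.97 and 8.57 and an interaction of 1.44, and AT4G33710, a putative pathogenesis-related protein, with 7.27, 7.53, 7.01 and 8.64 and an interaction of 1.37. In both the wrky47 Al array stood above the other 3. AT3G60470 (1.12), AT1G30990 (1.11) and AT1G10990 (1.04) rose 2-fold or more in wrky47 alone. AT1G52050 (1.13), AT2G30670 (1.34), AT1G19960 (1.06) and AT4G18630 (1.04) fell 2-fold or more in the wild type alone. AT2G30660 (1.16) and AT5G11070 (1.01) passed 2-fold in neither genotype.

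1 pair of the 16 genes were neighbours. AT2G30660, a probable 3-hydroxyisobutyryl-CoA hydrolase, and AT2G30670, a protein with a Rossmann fold, follow each other among the measured genes of chromosome 2 in the gene order of RefSeq's TAIR10.1 annotation. AT2G30670 had signals of 9.69, 8.85, 8.58 and 9.08, highest in the wild-type control, and AT2G30660 had 8.66, 7.94, 8.37 and 8.82. Both were lower in wrky47 in control solution and higher in Al. AT1G52050, a jacalin-like lectin, had 8.09, 6.5, 6.79 and 6.33, with the wild-type control array alone above 7. Its wrky47 signals lay close to the floors of 6.30 in control solution and 6.23 in Al, which limits how far a fall could be seen there. The next gene codes, AT1G52060 and AT1G52070, are lectins of the same kind that did not pass 2-fold, with interactions of 0.81 and 0.998, again with the wild-type control array highest. Whether probes of these alike lectins share transcripts was not tested, so the 3 cannot be taken as independent.

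The largest negative interaction belonged to ZIP2 (AT5G59520), a metal ion transporter of the ZIP family. Its signals were 9.29, 10.20, 8.67 and 7.81. It fell 5.25-fold in wrky47 and stayed under 2-fold in the wild type, at 1.54-fold lower, an interaction of -1.77 or 3.41-fold. The wrky47 array was the higher of the pair in control solution, by 0.91, and the lower in Al, by 0.85.

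CYP712A1 (AT2G42250), a cytochrome P450, had 10.64, 10.24, 8.92 and 7.36 and fell in both genotypes, 3.3-fold in the wild type and 7.36-fold in wrky47, an interaction of -1.16. YLS9 (AT2G35980), a protein of the NDR1/HIN1-like family that is induced in leaf senescence and after pathogen attack, had 7.79, 8.55, 10.37 and 10.12. It rose in both genotypes, 5.96-fold in the wild type and 2.97-fold in wrky47, an interaction of -1.01. The genotypes differed mostly in Al for CYP712A1, by -1.56, and mostly in control solution for YLS9, by 0.76.

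The other 4 lower genes have no symbol and were likewise chosen after their values were seen. AT2G29220, annotated as a putative inactive lectin-domain receptor kinase, had 7.20, 7.99, 10.10 and 9.64, rose 7.45-fold in the wild type and 3.14-fold in wrky47, and had an interaction of -1.24. AT1G80320, an oxygenase of the 2-oxoglutarate and iron dependent family, had 8.75, 8.64, 8.11 and 6.78 and fell 3.62-fold in wrky47 alone, with an interaction of -1.22. AT4G16260, a putative beta-1,3-glucanase, had 10.25, 11.58, 11.45 and 11.74, rose 2.30-fold in the wild type alone, and had an interaction of -1.04. Here the wild-type control array was the low one. AT5G47980, a putative BAHD acyltransferase, had 7.32, 7.62, 7.93 and 7.17 and an interaction of -1.05, with neither response past 2-fold.

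Seen as genotype differences, 38.4% of all measured genes had opposite signs in control solution and in Al. A large interaction is a large gap between these differences, which favours opposite signs. Of the 16 higher genes 12 were lower in wrky47 in control solution and higher in Al, and of the 7 lower genes 4 changed sign. The genotype difference in control solution was the larger of the pair in 11 of the 16 and in 4 of the 7. A design with 1 array per group assigns the interaction equally to its 4 arrays, so which array carries a value cannot be told apart from the array's own error.

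**Figure D4:**
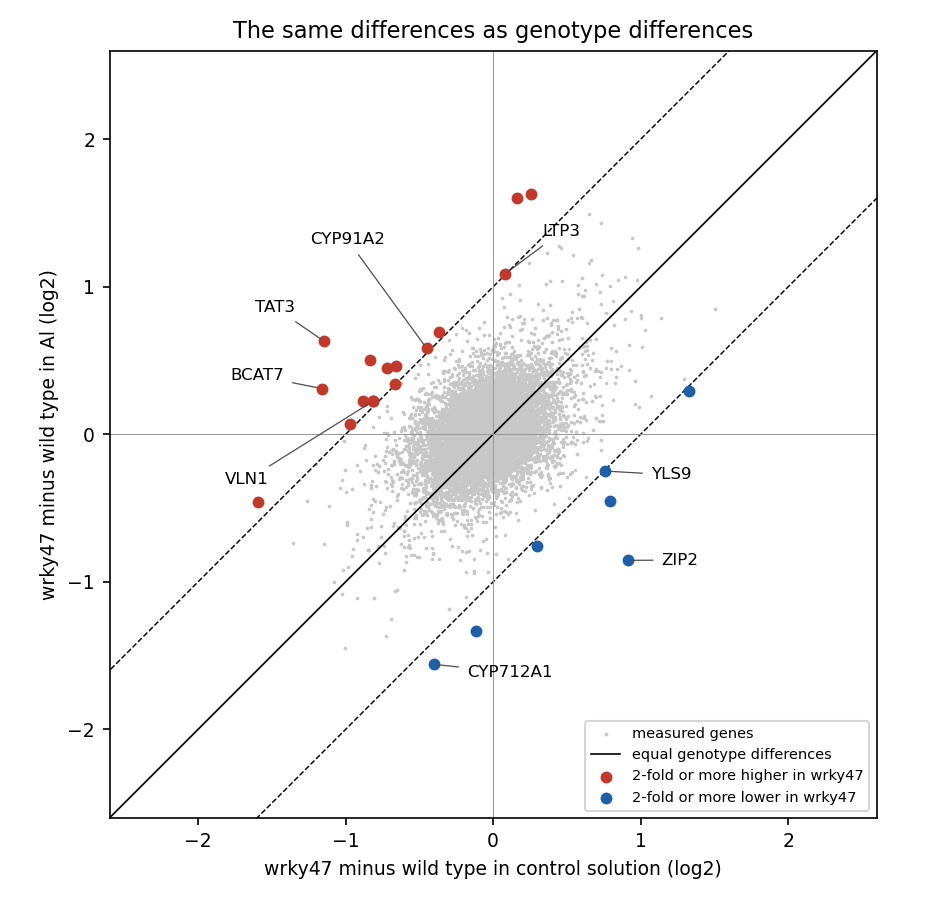
Genotype difference (wrky47 minus wild type, log2) in Al against that in control solution for the 12223 measured genes; the solid line marks equal differences and the dashed lines a 2-fold interaction. Most red points lie in the upper left, with wrky47 lower in control solution and higher in Al, while 3 red points near the vertical axis, LTP3 among them, differ mainly in Al; the 7 blue points lie below the lower dashed line, CYP712A1 and AT1G80320 with wrky47 lower in both solutions.

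Just short of 2-fold on the higher side, the genes with a symbol were ATPMEPCRB (AT4G02330, also named PME41), a pectin methylesterase, with 8.50, 7.87, 8.68 and 9.03 and an interaction of 0.98, and HMGB6, a high mobility group box protein, with 0.96. WRKY38, a WRKY factor known as a repressor of basal defence, followed with signals of 8.32, 8.02, 8.18 and 8.81 and an interaction of 0.94. TRM12 (0.93), EDA14 (0.92), the MADS-box gene AGL72 (0.92) and the protein kinase CIPK13 (0.92) complete the 12 highest. CIPK13 had 8.81, 8.41, 9.27 and 9.80 and rose 2-fold or more in wrky47 alone, with a log2 response of 1.39. In each of these 7 genes wrky47 was the lower genotype in control solution and the higher in Al.

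On the lower side PIP2E (AT2G39010, the aquaporin PIP2;6) had 6.45, 7.02, 7.60 and 7.18, rose 2-fold or more in the wild type alone, with a log2 response of 1.15, and had an interaction of -0.99. DUR3, a urea transporter of the plasma membrane, had 9.06, 9.50, 9.81 and 9.27 and an interaction of -0.98. GSTU11, a glutathione transferase, rose in both genotypes, from 6.44 to 9.40 in the wild type and from 6.88 to 8.87 in wrky47, an interaction of -0.98. The wild type thus had the lower signal of the pair in control solution and the higher in Al in all 3. In PIP2E and GSTU11 the wild-type control signal lay close to the floor of 6.34.

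ORA59, a transcription factor that joins jasmonate and ethylene signals, had 7.12, 7.63, 6.95 and 6.52 and fell 2-fold or more in wrky47 alone, with an interaction of -0.95. MYB77, a MYB factor linked to auxin responses in roots, had 6.91, 7.54, 8.70 and 8.41 and responses of 1.79 in the wild type, past 2-fold, and 0.86 in wrky47, short of it, with an interaction of -0.92. The carboxypeptidase-like gene scpl30 (-0.92), the methyl esterase MES1 (-0.83), the sulfate transporter SULTR1;1 (-0.81) and the calcium sensor CBL8 (-0.81) followed. SULTR1;1 had 10.20, 10.08, 9.32 and 8.38, so its signals fell 2-fold or more in wrky47 alone. CBL8 and CIPK13 belong to families whose members form calcium sensor and kinase pairs, and their interactions had opposite signs.

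WRKY47 (AT4G01720) itself gave no interaction. Its signals were 7.43, 4.78, 7.67 and 4.59, and both wrky47 arrays were below the floor of 6.30 and 6.23, so neither its response in the mutant nor a bound on the difference is known. In the wild type its response was 0.23. The sources used here do not say where the mutation lies relative to the probes.

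The genes of Al tolerance were then examined as a list, with 18 measured of 20 on the array. None passed 2-fold, 7 of 18 were above 0, and the median was -0.03 against 0.05 over all measured genes. For this list and those below, the shares to compare are 59.6% of all measured genes above 0 and 0.188% past 2-fold. With so small a share past 2-fold, a short list usually holds none. Under the other 3 scalings 46.7% to 48.4% of all measured genes were above 0. ALMT1, the malate channel that releases malate from the root tip, had 10.80, 10.94, 11.65 and 11.76, responses of 0.85 and 0.82, and an interaction of -0.02. The citrate transporter MATE (AT1G51340) rose in both genotypes, by 1.01 and 1.13. STOP1, the zinc finger factor that controls both, had an interaction of -0.07. These 3 genes of organic acid release had interactions between -0.07 and 0.12.

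Other transporters and further members of the list had values of either sign. ABCI17, the ATP-binding subunit also known as STAR1, had 9.52, 10.04, 9.31 and 9.04 and fell 2-fold or more in wrky47 alone, with a log2 response of -1.01 against -0.22 in the wild type and an interaction of -0.79. Its partner ALS3 had responses of 0.39 and 0.69 and an interaction of 0.30. ABCB27, the tonoplast transporter ALS1, had 8.71, 8.57, 9.20 and 9.49 and an interaction of 0.45. PGIP1, an inhibitor of pectin-degrading enzymes and a target of STOP1, rose in both genotypes, by 1.27 and 1.59, an interaction of 0.32. The potassium transporter HAK5 fell in both, with responses of -1.32 and -1.79, an interaction of -0.47.

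Cell wall genes fell into lists on either side of the overall median. XTH enzymes cut and rejoin xyloglucan, the main hemicellulose of the primary wall. Of 33 XTH genes on the array 18 were measured, 12 of them above 0, against 59.6% of all measured genes. None passed 2-fold, and the median was 0.09. XTH18 had 9.52, 8.71, 11.98 and 11.77, rose by 2.46 in the wild type and 3.06 in wrky47, and had an interaction of 0.61. XTH8 had 9.19, 8.68, 8.10 and 8.34, with responses of -1.09 in the wild type, past 2-fold, and -0.34 in wrky47, and had an interaction of 0.75. XTH19 had responses of 0.71 in the wild type and 1.26 in wrky47, of which the second passed 2-fold. In these 3 genes wrky47 was lower in control solution.

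XTH17 (AT1G65310), a close relative of XTH18 and XTH19 in sequence, had 7.02, 5.98, 9.12 and 8.42. Its wrky47 control signal was below the floor of 6.30, so the interaction was at least 0.02 and no upper limit is known. It was lower in wrky47 in both solutions, in Al by 0.69. The most strongly induced members differed little: XTR6 (XTH23) rose by 3.43 and 3.49 and TCH4 (XTH22) by 2.36 and 2.45.

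Expansins loosen the wall without cutting it. Of 31 expansin genes 13 were measured, and 10 of these were above 0, with a median of 0.23. EXLA3 had 7.78, 8.02, 7.64 and 8.80 and an interaction of 0.92, the wrky47 Al array being the high one. EXPA1 had 8.07, 7.54, 7.27 and 7.65 and an interaction of 0.91, with the wild-type control array the high one. EXPA6 (0.71) and EXPA15 (0.59) had the same arrangement as EXPA1, lower in wrky47 in control solution and higher in Al. None of the list's members passed 2-fold.

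The cellulose synthesis genes lay on the other side. Of 9 measured genes of primary wall cellulose synthesis 2 were above 0, with a median of -0.20, and of 14 measured genes of the secondary wall and xylem 3 were above 0, with a median of -0.15. The 9 primary wall genes were close together, from -0.31 to 0.18, and no value reached 0.5. CESA1, a catalytic subunit of the primary wall synthase, had 9.79, 9.83, 9.98 and 9.71 and an interaction of -0.31. CESA6 had 11.15, 11.12, 11.29 and 10.96 and also -0.31. The genotype differences of CESA1 and CESA6 were 0.04 and -0.03 in control solution and -0.27 and -0.34 in Al. CESA4, of the secondary wall synthase, had 8.74, 8.46, 8.57 and 7.82 and an interaction of -0.48.

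Extensins and other proline-rich wall proteins had a median of -0.11 over 6 measured genes and pectin methylesterases and their inhibitors a median of -0.12 over 7, in which ATPMEPCRB (0.98) and PMEI6 (0.50) were the 2 members above 0. EXT6 (-0.80) was the extreme of the first list, and its probe set carries the suffix that marks probes shared with other genes. Class III peroxidases cross-link wall polymers. The list examined held 9 of them, not the whole family, and left out the root hair peroxidase RHS19 (PRX73) given below. Its 8 measured members had a median of -0.06. Among them the peroxidase AT5G64120 (PRX71) fell in both genotypes, from 8.44 to 7.12 in the wild type and from 8.53 to 6.27 in wrky47, an interaction of -0.94. PRX52 had an interaction of -0.70.

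Root hair genes were mostly too dim: 6 of 29 were above the floor on all 4 arrays, and this count favours the brightest. Their median was 0.33, and 5 of 6 were above 0. The highest was RSH2 (AT1G12950, with RHS3 among its RefSeq synonyms) at 0.64, and RHS19 (PRX73), a peroxidase of growing root hairs, had 10.72, 10.12, 9.80 and 9.84 and an interaction of 0.63. RHD2, the NADPH oxidase of the hair tip, had 9.0, 8.68, 8.48 and 8.42 and an interaction of 0.25. The wild-type control array was the highest in both.

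In the endodermis the members differed in sign. CASP1, a scaffold protein of the Casparian strip, had 11.37, 10.33, 7.96 and 7.60, fell in both genotypes with responses of -3.41 and -2.73, and had an interaction of 0.67. ESB1, a dirigent protein of the same structure, had 10.47, 9.64, 8.18 and 7.70 and an interaction of 0.35. PER64, a peroxidase of the Casparian strip, had 0.06, the Casparian strip kinase SGN1 (AT1G61590) -0.36 and MYB36, the transcription factor of the programme, -0.07. Over 7 measured Casparian strip genes the median was 0.06, and it changed sign under the other 3 scalings (-0.01). The endodermis markers, 5 on the array of which 4 were measured and none was below the floor throughout, had a summed linear signal of 5035, 2871, 1038 and 869, an interaction of 0.56 on the log2 scale. Most of that sum in control solution was CASP1 and ESB1, and the other measured markers, MYB36 (-0.07) and SCR (-0.14), lay below 0. In whole roots fewer cells of a type and less RNA per cell cannot be told apart, and the part of cell composition in these values was not tested.

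The list of salicylic acid and defence genes had a median of 0.25 over 14 measured genes, 12 of them above 0 and none past 2-fold. It also holds genes of other defence compounds, among them the 3 given next. CYP71A12, a P450 of indolic defence compounds, had 7.53, 7.58, 8.95 and 9.87, rose by 1.43 in the wild type and 2.29 in wrky47, and had an interaction of 0.86. FMO1, the oxygenase that makes the immune signal N-hydroxypipecolic acid, had 10.56, 10.63, 10.34 and 11.07 and an interaction of 0.65. ALD1, which acts a step earlier in that route, had 8.08, 8.54, 8.79 and 9.83 and an interaction of 0.58. In all 3 the genotypes differed by less than 0.47 in control solution, and wrky47 was higher in Al by 0.73 to 1.04. ICS1 (0.26), EDS5 (0.27) and PBS3 (0.05), which act in salicylic acid synthesis, had smaller values than these 3. The upstream regulators EDS1 (0.25), PAD4 (0.19), NPR1 (-0.05) and SARD1 (0.01) also had smaller values, and CBP60G was at -0.27. PR1 and PR5, the usual reporters of the salicylic acid pathway, were below the floor on all 4 arrays.

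WRKY genes as a family had a median of 0.18 over 49 measured genes, with 34 above 0, 8 at 0.5 or more and none at -0.5 or less. Over all measured genes 59.6% were above 0, 3.88% at 0.5 or more and 1.58% at -0.5 or less. WRKY28 had 7.56, 6.85, 8.04 and 8.20, responses of 0.48 in the wild type and 1.36 in wrky47, and an interaction of 0.88. WRKY18 had 7.45, 7.62, 8.32 and 9.33, responses of 0.87 and 1.71, and an interaction of 0.84. WRKY38, WRKY56 (0.70) and WRKY75 (0.56) were also among these 8. WRKY18 and WRKY28 differed in arrangement, since wrky47 was above the wild type in control solution for WRKY18, by 0.18, and below it for WRKY28, by 0.72. At the other end stood WRKY16 (TTR1 in RefSeq), at -0.38.

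Lists for other hormones were nearer the overall median, apart from auxin. Auxin genes had a median of 0.17 over 22 measured genes, 18 of them above 0, in a range from -0.25 to 0.32. Ethylene genes had 5 of 17 above 0 and a median of -0.03. ACS7, an enzyme of ethylene synthesis, rose by 2.54 in the wild type and 2.98 in wrky47, an interaction of 0.44. Jasmonate genes had a median of 0.04 over 15 measured genes. TAT3 was the only member past 2-fold, and the next highest was JAZ5, a repressor of jasmonate responses, at 0.39. The abscisic acid list had a median of -0.01 over 12 genes.

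Among stress lists, chaperones of the endoplasmic reticulum had a median of 0.17 over 8 measured genes, 7 of them above 0. BIP3, an inducible lumenal chaperone, stood out with 8.78, 9.43, 9.02 and 10.51 and an interaction of 0.84. Its response passed 2-fold in wrky47 alone, and its wrky47 signal was above the wild type in both solutions, in control by 0.65. Cytosolic heat shock genes, with 3 measured, had a median of -0.09. Rapid stress and touch genes, with median Al responses of 1.17 in the wild type and 1.29 in wrky47, had a median interaction of 0.11 over 17, antioxidant enzymes 0.00 over 15, glutathione transferases 0.05 over 25, and calmodulin-like proteins 0.14 over 9.

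The metal and nutrient lists had medians near that of all genes, except for ZIP transporters at -0.37. Of 6 measured ZIP transporters ZIP2, ZIP5 (-0.75) and ZIP3 (-0.69) were low and the other 3 lay between -0.04 and 0.11. ZIP3 had 9.54, 9.45, 10.29 and 9.51, so the wild-type Al array stood above the other 3. ZIP5 had 7.12, 7.29, 7.0 and 6.42, with the wrky47 Al array below the rest. Of the iron list NAS2, a nicotianamine synthase, had 8.28, 8.22, 6.90 and 7.57, responses of -1.39 in the wild type and -0.65 in wrky47, and an interaction of 0.73. FRD3, a citrate transporter of the stele, fell in both and had -0.47. The median of the 6 measured iron genes was 0.09.

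Sulfate genes went both ways: beside SULTR1;1 at -0.81, LSU2, a marker of sulfur deficiency, had 9.33, 9.43, 8.36 and 9.10 and an interaction of 0.63. In the nitrate list the transporter NRT2:1 fell in both genotypes (-1.23 and -1.69, interaction -0.46) and G6PD3, an enzyme of the plastid pentose phosphate pathway, fell in both too (-2.26 and -1.72, interaction 0.54). Aquaporins had a median of -0.03 over 18 measured genes, and beside PIP2E the lowest were PIP1;5 (-0.42) and PIP2;4 (-0.37). Of 17 measured UMAMIT genes, a family with amino acid exporters, 4 were above 0, with a median of -0.11.

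Set against the median of all measured genes, most lists kept their side in all 8 alternatives of scaling, filter and summary. Root hair genes lay 0.28 above it (0.19 to 0.29 over the alternatives), defence genes 0.20 above (0.19 to 0.24), expansins 0.18 above (0.09 to 0.18), WRKY genes 0.13 above (0.11 to 0.17) and chaperones of the endoplasmic reticulum 0.12 above (0.12 to 0.17). Auxin genes lay 0.11 above it, with as little as 0.01 in 1 alternative. On the other side, primary wall cellulose synthesis lay at -0.25 (-0.25 to -0.20) and secondary wall genes at -0.20 (-0.27 to -0.10). UMAMIT genes lay at -0.16 (-0.24 to -0.15) and UDP-glycosyltransferases at -0.12 (-0.12 to -0.07). ABC transporters of the G family lay at -0.11 (-0.14 to -0.09) and ZIP transporters at -0.42 (-1.28 to -0.37). The -1.28 came from the stricter filter, which left 2 ZIP genes. Centring on the median and scaling to the 75th percentile shift all genes alike, and the second table holds the same values. Those alternatives could only repeat each distance from the median of all measured genes. Keeping a side did not set the lists above apart, since the reference genes also kept theirs (0.006 to 0.05 above the median).

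The other lists are given by their medians. Cytochrome P450s had 69 measured members, 1 past 2-fold in each direction, and a median of 0.06. UDP-glycosyltransferases had a median of -0.07 over 27 and ABC transporters of the G family -0.06 over 21. Phenylpropanoid genes were at 0.06 over 14, suberin genes at -0.03 over 12 and phosphate starvation genes at 0.11 over 7. Cytosolic ribosomal proteins had 109 of 137 above 0, against 59.6% of all measured genes, with a median of 0.11 and quartiles of 0.02 and 0.20. Cell division genes had a median of 0.06 over 14, in which AUR2, an Aurora kinase, was highest at 0.79, and the 14 reference genes also had 0.06. Counted from 0, the medians of the jasmonate, antioxidant, P450 and cell division lists changed sign under all 3 other scalings, those of the phenylpropanoid, glutathione transferase and reference lists under 2, and those of the sulfate and nitrate lists under 1.

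**Figure D5:**
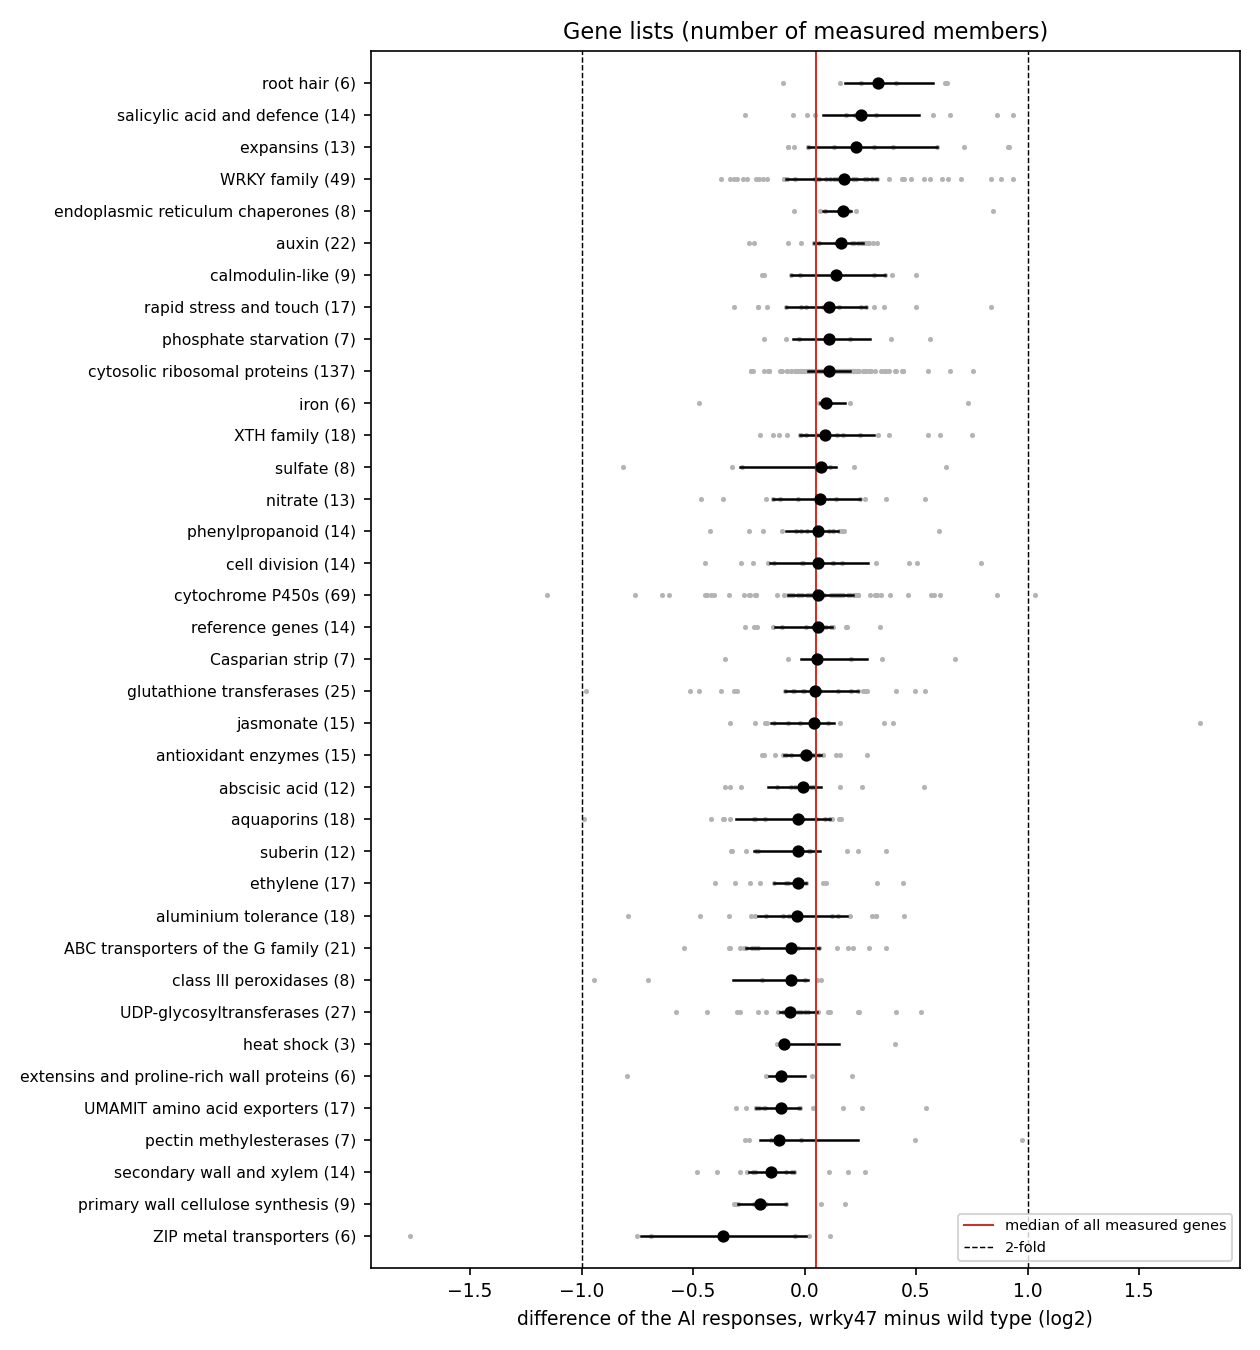
Interaction (horizontal axis, log2) of the measured members (grey points), quartiles (bars) and median (black point) of 37 gene lists, with the number of measured members in brackets. The red line is the median of all measured genes at 0.05; root hair, defence and expansin genes lie to its right and ZIP transporters, cellulose synthesis and secondary wall genes to its left, and 4 points in all lie beyond the dashed 2-fold lines.

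The control probe sets and marker genes put these sizes in context. Added spike-in transcripts carry no biology, but the controls also hold 17 probe sets of plant transcripts such as actin. None of the 45 control probe sets above the floor passed 2-fold, with values from -0.88 to 0.52. The Dap and Thr spike-ins were nevertheless below 0 in 9 of 9 probe sets, with a mean of -0.55. Their mean log2 signal was lowest for the wild type in control solution, at 7.48, against 7.97, 8.06 and 7.99 for the other 3 arrays. The hybridisation controls had a median of 0.20 over 18 probe sets, and 14 of 18 were above 0. Root markers were present, with 9 of 10 measured, and of 8 photosynthesis genes 3 were below the floor on every array, with summed signals of 564 to 994. Summed over each of 9 marker lists, the interaction of the log2 signal ran from -0.21 for phloem to 0.56 for endodermis, with 0.28 for root hair cells, 0.19 for meristem, 0.11 for genes of harvest time, 0.08 for root cap, 0.04 for green tissue, -0.03 for stele and -0.09 for root. The sums include markers below the floor. Measured were 1 of 5 markers of root hair cells, 1 of 4 of the root cap, 2 of 4 of the meristem and 2 of 8 of green tissue. The measured root hair cell marker, COBL9, had an interaction of -0.02, so the 0.28 rests on dim genes. The part of these marker shifts in the interactions was not tested.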

How the data were processed

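Total RNA of roots from 4 samples, 1 for each combination of genotype and solution in the labels, was measured on 1-colour arrays. The authors deposited log2 signal values for 22810 probe sets in the normalized columns, per the file headers. Linear intensity stands in the raw columns of the same deposited table, each value being 2 raised to the log2 value. The submitters' processing notes name MAS5. Its version and settings, how arrays were scaled to each other, and the build: not given in the sources used here. A second deposited table of log2 values, named by sample, differed in 0 values and tied the columns to the samples.

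From the log2 values the interaction was computed for each probe set naming 1 gene. A gene took its probe set of highest mean signal, and counted as measured above the 40th percentile of the 22746 probe sets that are no controls, on all 4 arrays (linear signals of 81.1, 79.1, 75.0 and 75.1, with 12838 to 12855 genes above it). An undetected signal gave a bound only where every undetected array enters the sum with the same sign. Symbols came from RefSeq's TAIR10.1 gene table, which matched 20277 of 20341 gene codes and gave 8906 a symbol. With 1 array per group no test was possible, and the number of arrays limits the precision. The values cover differences between these arrays only. Genes named singly were the 12 highest and 12 lowest with a symbol, WRKY47, XTH17, the up to 4 members of each list with the largest differences, and genes with a bound past 2-fold; codes without a symbol, and other list members named for their role, were chosen after their values were seen. The groups of interest, the 37 gene lists and the 9 marker lists were chosen with earlier results of these data known. Alternatives were 3 other scalings, no filter and a stricter filter, averaging a gene's probe sets, adding an offset before log2, the second table and thresholds of 1.5-fold and 3-fold. The computation was tested on simulated data, in Python 3.11.15 with pandas 2.3.3, numpy 2.4.6 and matplotlib 3.10.9.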

Additional observations from a re-analysis of the deposited data

Results flagged for a closer look

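In 8 of the 23 genes past 2-fold the wild-type array and the wrky47 array moved in opposite directions with Al, which marked them for a closer look. This difference was not tested, since each direction rests on a single pair of arrays. Of the genes with a symbol, CYP91A2 (AT4G37430) had responses of -0.73 in the wild type and 0.30 in wrky47, a difference of 1.03, and LTP3 (AT5G59320) had -0.84 and 0.17, a difference of 1.01. Of the codes without a symbol, AT1G63530 had -0.10 and 1.34 (difference 1.44), AT4G33710 had -0.26 and 1.11 (difference 1.37), AT2G30670 had -1.11 and 0.23 (difference 1.34), AT2G30660 had -0.29 and 0.87 (difference 1.16) and AT5G11070 had -0.74 and 0.27 (difference 1.01). AT5G47980 was the only lower gene among them, with 0.61 and -0.45 (difference -1.05). No measured gene rose 2-fold or more in 1 genotype and fell 2-fold or more in the other. It follows that at least 1 response of each of the 8 genes was under 2-fold. Over all measured genes 2479 of 12223 had responses of opposite sign.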

How the results depend on the processing

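The counts of higher and lower genes past 2-fold (16 and 7) changed with most settings. Quantile normalization gave 10 and 11, centring on the median of detected genes 9 and 12, and scaling to the 75th percentile 9 and 12. Without a filter 20341 genes gave 52 and 28, and above the 60th percentile 7659 genes gave 5 and 2. The offset gave 7 higher genes, and 5 lower. A threshold of 1.5-fold gave 257 and 107 and one of 3-fold gave 1 and 1, TAT3 and ZIP2. The mean of all probe sets and the second table gave 16 and 7. The median of the interaction ranged from -0.02 to 0.05 and its SD from 0.215 to 0.275. TAT3 ranged from 1.63 to 1.80, BCAT7 from 1.38 to 1.47 and ZIP2 from -1.84 to -1.67. Each passed 2-fold in every alternative that measured it. VLN1 and LTP3 passed in 3 of 7 and CYP91A2 in 4 of 8. With 1 probe set per gene, the filters, the mean of probe sets and the second table could only repeat the reported value. VLN1, LTP3 and CYP91A2 passed in such alternatives only, and their lowest values were 0.83, 0.87 and 0.96. The same held for AT5G11070 and AT4G18630, which passed in 3 of 7, with lowest values of 0.82 and 0.90. Over 176 named genes 1338 values under the alternatives, such repeats included, moved by less than 0.22 and none changed sign among those past 2-fold. Of 296 list medians, the repeats of the second table included, 10 moved by 0.1 or more. The medians of the jasmonate, Casparian strip, antioxidant, cell division and P450 lists changed sign under all 3 other scalings. No paired analysis was possible because each group has 1 array. Array number limits every value, and signal limits genes near the floor.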

Other observations

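Probe sets that name several genes or none were outside the rule. Of 577 measured probe sets with several genes 5 had an interaction of 1 or more and 2 of -1 or less, with a median of 0.10, and of 95 without a gene none passed 2-fold. Over the 12223 measured genes 0.188% passed 2-fold and the median was 0.05. Values past 2-fold were thus more frequent among the probe sets with several genes. The lowest was a probe set for defensin-like proteins, with log2 signals of 8.25, 8.17, 8.44 and 6.69 in the order used above and an interaction of -1.67, in which the wrky47 Al array stood below the other 3. The probe set titled AtHSD7, a hydroxysteroid dehydrogenase of oil bodies, had 10.85, 10.43, 9.36 and 7.69 and -1.25. On the higher side the serine carboxypeptidase-like scpl14 (8.79, 7.51, 9.31 and 9.50) had 1.47, the thioglucosidase BGLU34 (10.33, 8.58, 9.17 and 8.81) had 1.38, a probe set for delta-9 desaturase-like proteins had 1.32, RNS1, a ribonuclease of phosphate starvation and senescence, had 1.24, and ATRZ-1A had 1.01. BGLU34 and the desaturase-like probe set had their highest signal on the wild-type control array. Since each of these probe sets reads more than 1 gene, none of the values belongs to a single gene.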
